A study of Mus musculus with 6 samples.

Results

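The clade A serpins described here are 10 genes of mouse liver, selected by symbol: Serpina1a, Serpina1b, Serpina1c, Serpina1d, Serpina1e, Serpina3k, Serpina3m, Serpina3n, Serpina6 and Serpina7. All 10 were present among the 15092 genes of the deposited table, and all 10 passed the filter on low counts, as did 13816 genes in all. Liver RNA of the strain C57BL/6J was sequenced in 3 libraries labelled CRY1 KO, a knockout of the circadian repressor gene Cry1, and 3 labelled wild type (WT). For neither group do the labels give a treatment, the animals' sex or age, their feeding or the time of day, and every title carries a prefix NC that is not explained. The labels do not say whether the replicates were separate animals. The p-values set each difference against the spread between these libraries. That spread may be technical, in which case the p-values do not speak for animals. Across the 10 genes no difference between CRY1 KO and WT was detected: 0 passed the edgeR test, and the levels, the order of the paralogs and their shares of each family overlapped between the groups, with the exception of the Serpina3m level.

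Serpins are secreted or intracellular proteins that trap a protease by offering it a flexible reactive centre loop as bait and changing shape once that loop is cut. Clade A is made largely by hepatocytes and is released into plasma. Serpina1a to Serpina1e are the mouse copies of the gene for α1-antitrypsin, the main plasma inhibitor of neutrophil elastase, which is a single gene in humans. Serpina3k, also called contrapsin, Serpina3m and Serpina3n are mouse copies related to the human gene for α1-antichymotrypsin, and Serpina3n is known as an acute phase gene and an inhibitor of granzyme B. Serpina6 and Serpina7 keep the serpin fold but carry hormones, Serpina6 as corticosteroid-binding globulin and Serpina7 as thyroxine-binding globulin.

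By gene order in RefSeq, 9 of the genes lie in a cluster on chromosome 12 and Serpina7 lies on chromosome X. From Serpina6 to Serpina3n the cluster holds 22 protein-coding genes, all 22 of them named Serpina, and 13 annotated pseudogenes. The coding sequences of Serpina1a to Serpina1e were between 96.3% and 98.5% identical in pairs (GENCODE M21), those of Serpina3k, Serpina3m and Serpina3n between 82.73% and 90.99%, and Serpina6 and Serpina7 were 53.8% identical. The stretch of 60 bases in which the Serpina1 copies differ most had 18 variable positions, where the median stretch had 4. It lies in the region that codes for the reactive centre loop, and it is shown because reads from it tell the copies apart. Capitals mark the positions at which the copies differ, and each stretch runs from coding base 1101 to 1160, counted from the start codon.
Serpina1a: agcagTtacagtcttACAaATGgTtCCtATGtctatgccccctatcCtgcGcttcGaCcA
Serpina1b: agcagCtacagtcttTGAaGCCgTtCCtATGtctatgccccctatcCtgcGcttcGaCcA
Serpina1c: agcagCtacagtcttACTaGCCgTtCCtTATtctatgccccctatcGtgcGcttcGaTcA
Serpina1d: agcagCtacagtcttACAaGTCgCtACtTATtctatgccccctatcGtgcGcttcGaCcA
Serpina1e: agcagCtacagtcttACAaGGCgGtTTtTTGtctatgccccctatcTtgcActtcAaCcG

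The most variable 60 bases of the Serpina3 copies also lie in the reactive centre loop region and had 26 variable positions, where the median stretch had 8. They run from coding base 1103 to 1162 in Serpina3k and from 1097 to 1156 in Serpina3m and Serpina3n, with the same use of capitals.
Serpina3k: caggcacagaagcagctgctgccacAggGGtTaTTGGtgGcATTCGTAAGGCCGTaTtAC
Serpina3m: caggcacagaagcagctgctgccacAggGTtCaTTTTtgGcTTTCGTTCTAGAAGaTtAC
Serpina3n: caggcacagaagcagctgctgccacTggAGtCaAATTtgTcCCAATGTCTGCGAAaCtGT

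How far a read can be told from reads of the other 9 genes differed from gene to gene. Of all 100-base windows of the coding sequence, 38.7% in Serpina1a and 38.2% in Serpina1c were found in no transcript of the other 9 genes. The share was 70.1% in Serpina1d, 72.02% in Serpina1b and 80.9% in Serpina1e. It was 91.8% in Serpina3k and in Serpina3m, and 100% in Serpina3n, Serpina6 and Serpina7. With windows of 50 bases the share was 25.5% in Serpina1a and 61.0% in Serpina1e, and with windows of 150 bases 46.9% and 90.1%. The other genes and the pseudogenes of the cluster were not searched, so each share is an upper bound for its window length. Neither the read length nor the way the authors' tools divided shared reads is given in the sources used here. The split among the Serpina1 copies is therefore uncertain, and their sum is given beside the separate values.

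The 5 Serpina1 promoters are shown because the copies share them almost letter for letter. The windows are of 86 bases on the minus strand (RefSeq, GRCm38.p6), all upstream of the annotated start, and differ at between 2 and 7 positions in pairs. Capitals mark GTTAATATTCAC, which contains GTTAAT, letters known from binding sites of hepatocyte nuclear factor 1, a factor that binds the human α1-antitrypsin promoter.
Serpina1a (chr12:103863625-103863710): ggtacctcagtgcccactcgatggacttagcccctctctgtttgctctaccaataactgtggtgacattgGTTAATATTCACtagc
Serpina1b (chr12:103738200-103738285): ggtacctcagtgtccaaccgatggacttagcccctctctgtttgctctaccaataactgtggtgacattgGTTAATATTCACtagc
Serpina1c (chr12:103904962-103905047): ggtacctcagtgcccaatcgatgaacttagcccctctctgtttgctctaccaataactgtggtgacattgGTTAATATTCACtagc
Serpina1d (chr12:103773634-103773719): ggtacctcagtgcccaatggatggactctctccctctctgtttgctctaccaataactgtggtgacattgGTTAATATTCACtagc
Serpina1e (chr12:103956960-103957045): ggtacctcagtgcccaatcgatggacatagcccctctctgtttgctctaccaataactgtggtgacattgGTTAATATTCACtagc

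The longer motif was read off these promoters and then searched on both strands of all 32851 RefSeq promoter windows of 300 bases. It was found in 5 windows (0.0152%), those of the 5 Serpina1 genes. The shorter GTTAAT was found in 7.10% of windows, including that of Serpina7 and not that of Serpina3n. A match is a description of the sequence and not a measured binding site.

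Library totals ranged from 79708703 to 87480152 estimated counts in CRY1 KO and from 83941470 to 91316332 in WT. Cry1 did not check the labels: CRY1 KO libraries had 6.95, 6.41 and 5.22 CPM of it and WT libraries 4.80, 6.89 and 7.24 CPM (log2 difference -0.027, edgeR adjusted p = 0.954). The value covers the whole gene, and every direction given here is that of the libraries labelled CRY1 KO. The labels name hepatocytes, with no sorting. All 9 hepatocyte markers were present, with a summed level of 80917 to 91975 CPM in CRY1 KO and 71512 to 80870 CPM in WT. All 12 Kupffer cell markers were present too, at 238.4 to 242 CPM in CRY1 KO and 259 to 663 CPM in WT, the highest in WT 1. In RNA of bulk tissue, fewer cells of a type and less RNA per cell cannot be told apart.

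The Serpina1 genes together took 2.97% to 3.30% of all counts of a library in CRY1 KO and 3.04% to 3.49% in WT. Serpina3k, Serpina3m and Serpina3n together took 1.02% to 1.34% in CRY1 KO and 1.11% to 1.41% in WT. By mean CPM Serpina3k ranked 5 among the 13816 tested genes and Serpina1e ranked 10, while the other Serpina1 genes ranked between 19 and 46. Serpina3m and Serpina3n ranked 306 and 371, Serpina6 786 and Serpina7 2745.

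Between genes, levels were compared as CPM per kilobase of coding length, which lay between 1191 bases in Serpina6 and 1278 in Serpina7 and was 1239 in each Serpina1 copy. Serpina3k was highest, at 8700 ± 1995 in CRY1 KO and 9790 ± 1832 in WT (SD, n = 3 each). Serpina1e followed at 8158 ± 1697 in CRY1 KO and 7902 ± 984 in WT. Serpina3k and Serpina1e did not separate beyond their spread: Serpina3k was above Serpina1e in 5 of 6 libraries, with CRY1 KO 1 as the exception.

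Below them the Serpina1 copies kept the order Serpina1c, Serpina1b, Serpina1a, Serpina1d in 6 of 6 libraries, with Serpina1e 2.40-fold above Serpina1d on average over all libraries. How shared reads were divided among these copies is not given, so a repeated order does not settle their true order. A step of 11.5-fold separated Serpina1d, at 3383 ± 297 in CRY1 KO and 3299 ± 260 in WT, from Serpina3m, at 275 ± 14.1 in CRY1 KO and 304 ± 12.4 in WT. Serpina3n stood at 239 ± 8.71 in CRY1 KO and 235 ± 62.5 in WT and was below Serpina3m in 5 of 6 libraries, the exception being WT 1. Serpina6 and Serpina7 were lowest, Serpina6 at 116 ± 31.8 in CRY1 KO and 126 ± 24.9 in WT, and Serpina7 at 26.8 ± 15.3 in CRY1 KO and 36.1 ± 16.9 in WT. From Serpina3k to Serpina7 the levels spanned 294-fold. When the length of the whole transcript was used in place of the coding length, a choice made after the data were seen, Serpina1e came before Serpina3k and Serpina1a before Serpina1b, and the other ranks did not move.

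**Figure D1:**
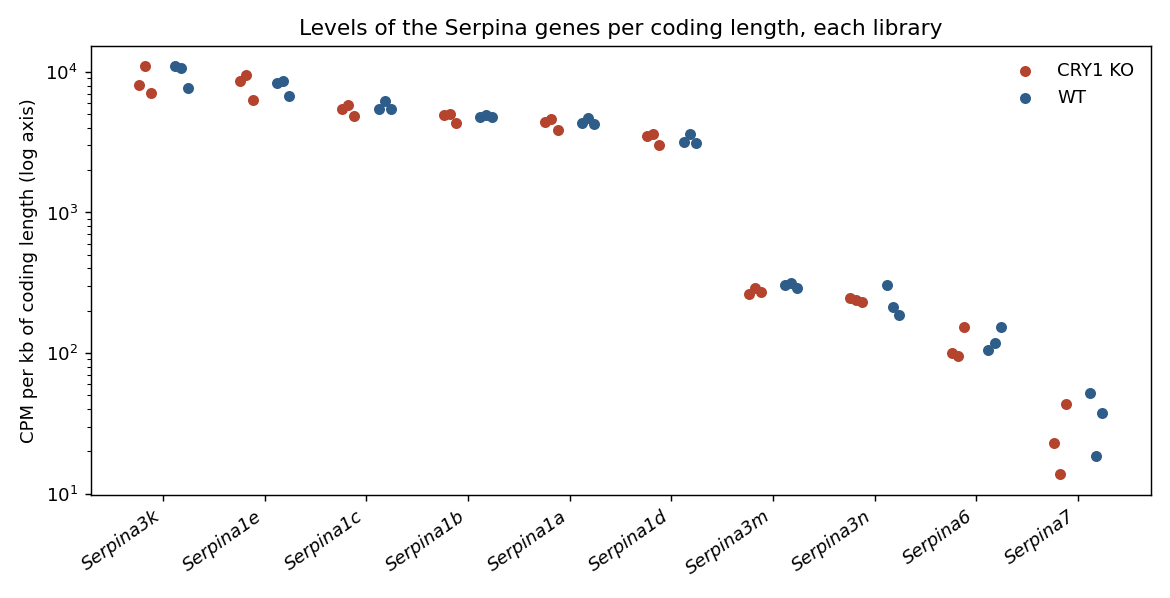
Level of each Serpina gene in CPM per kilobase of coding length on a log axis, one point per library, with 3 CRY1 KO libraries left and 3 WT libraries right of each gene's tick. Serpina3k and the 5 Serpina1 genes lie at 3045 or more, the other 4 genes at 316 or less, and the points of the groups lie side by side.

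Among the α1-antitrypsin genes, Serpina1e, the most abundant copy, stood at 10696, 11854 and 7775 CPM in CRY1 KO 1, 2 and 3 and at 10287, 10683 and 8402 CPM in WT 1, 2 and 3. The lowest library of each group was the one numbered 3, and the groups overlapped. The log2 difference of CRY1 KO minus WT was 0.046 (SE 0.17, edgeR adjusted p = 0.908). Serpina1c had 6716, 7231 and 6070 CPM in CRY1 KO and 6715, 7742 and 6734 CPM in WT, and a log2 difference of -0.082 resulted (SE 0.12, edgeR adjusted p = 0.726). Its groups overlapped as well, with CRY1 KO 3 lowest and WT 2 highest of all 6 libraries.

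Serpina1b varied least of the Serpina1 copies, with 6073, 6238 and 5382 CPM in CRY1 KO and 5902, 6112 and 5903 CPM in WT. Its log2 difference was -0.018 (SE 0.11, edgeR adjusted p = 0.945), and the lowest library was CRY1 KO 3. Serpina1a averaged 5309 ± 501 CPM in CRY1 KO and 5506 ± 276 CPM in WT (SD, n = 3 each), and the log2 difference, -0.052, had an SE of 0.11 (edgeR adjusted p = 0.827). Serpina1d averaged 4192 ± 368 CPM in CRY1 KO and 4088 ± 322 CPM in WT, and the log2 difference, 0.036, had an SE of 0.12 (edgeR adjusted p = 0.887). In each of the 5 copies CRY1 KO 3 was the lowest library.

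When the 5 copies were summed, so that the split of reads among them no longer mattered, CRY1 KO stood at 33246, 35528 and 27763 CPM and WT at 32240, 34809 and 30210 CPM. Reads shared with genes outside these 5 were not examined. CRY1 KO over WT was 0.993-fold, with a 95% interval of 0.801 to 1.23. The sign of the log2 difference, -0.011, turned when a library was left out, with values from -0.088 without CRY1 KO 2 to 0.090 without CRY1 KO 3.

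Among the antichymotrypsin-related genes, Serpina3k stood at 10115, 13713 and 8902 CPM in CRY1 KO and at 13747, 13453 and 9630 CPM in WT. The libraries fell into a higher set of CRY1 KO 2, WT 1 and WT 2 and a lower set of CRY1 KO 1, CRY1 KO 3 and WT 3, so the groups overlapped. The log2 difference was -0.17 (SE 0.20, edgeR adjusted p = 0.658). It was -0.37 without CRY1 KO 2 and -0.038 without CRY1 KO 3. The sum of Serpina3k, Serpina3m and Serpina3n, nearly all of it Serpina3k, was 0.892-fold in CRY1 KO over WT, with a 95% interval of 0.659 to 1.21.

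Serpina3m was the member with the smallest SD of log2 CPM within groups (0.067) and with no overlap. It had 331, 365.0 and 341 CPM in CRY1 KO and 381, 397 and 365.4 CPM in WT, so that the highest CRY1 KO library lay just below the lowest WT library. The log2 difference of -0.14 (SE 0.087, 95% interval -0.34 to 0.056) did not pass the edgeR test (adjusted p = 0.384). Such separation of the groups was found in 27.3% of all tested genes, and with CRY1 KO lower in 12.7%, so that 1 of 10 members is near the background.

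Serpina3n stood at 311, 298 and 289.8 CPM in CRY1 KO and at 384, 266 and 236 CPM in WT. The CRY1 KO libraries lay within a narrow band, while WT 1 was above and WT 2 and WT 3 below all of them. The log2 difference was 0.022 (SE 0.17, edgeR adjusted p = 0.958). It was 0.26 without WT 1 (adjusted p = 0.189) and -0.11 without WT 3 (adjusted p = 0.670). WT 1 was also highest in the summed level of 30 listed acute phase genes. The sum was 26236, 26754 and 26104 CPM in CRY1 KO 1, 2 and 3 and 39790, 34108 and 28120 CPM in WT 1, 2 and 3. The median of these genes was 86.9, 87.4 and 103 CPM in CRY1 KO and 261, 107 and 74.7 CPM in WT, so by the median the groups overlapped. WT 1 was highest too for the 7 red blood cell markers, which summed to 581 to 735 CPM in CRY1 KO and to 2979, 1024 and 654 CPM in WT 1, 2 and 3. The part of these lists in the Serpina3n values was not tested.

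**Figure D2:**
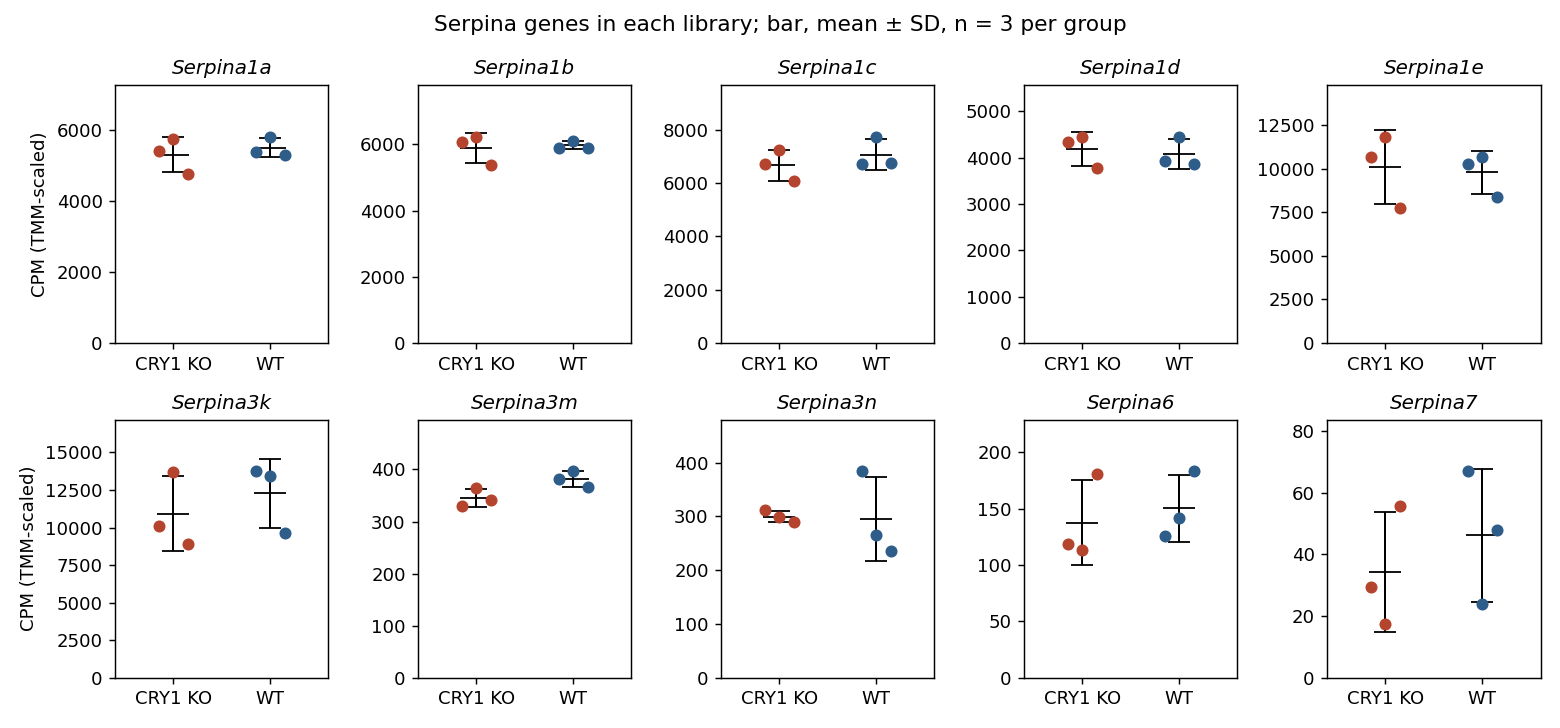
TMM-scaled CPM of each Serpina gene, with one panel per gene and a linear axis from 0; points are libraries 1, 2 and 3 of CRY1 KO (left) and WT (right), and bars are the mean and SD of 3 libraries. The groups overlap in 9 of 10 panels, and in Serpina3m the CRY1 KO points end at 365.0 CPM where the WT points begin at 365.4 CPM.

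Of the hormone carriers, Serpina6, the corticosteroid-binding globulin gene, stood at 119, 113 and 181 CPM in CRY1 KO and at 126, 142 and 183 CPM in WT. CRY1 KO 3 and WT 3 were the highest libraries of their groups, opposite to Serpina1e and Serpina3k, which were lowest there. The log2 difference was -0.13 (SE 0.21, 95% interval -0.63 to 0.38, edgeR adjusted p = 0.773).

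Serpina7, the thyroxine-binding globulin gene, varied most. It stood at 29.5, 17.5 and 55.7 CPM in CRY1 KO and at 66.9, 23.8 and 47.8 CPM in WT, so that the highest library was 3.81-fold above the lowest and the groups overlapped. Its log2 difference of -0.43 had an SE of 0.58 and a 95% interval from -1.92 to 1.06 (edgeR adjusted p = 0.715). These libraries therefore bound the difference in Serpina7 only to between 0.264-fold and 2.08-fold. It moved to -0.97 without CRY1 KO 3 and to -0.065 without WT 1, and passed the test in neither case.

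**Figure D3:**
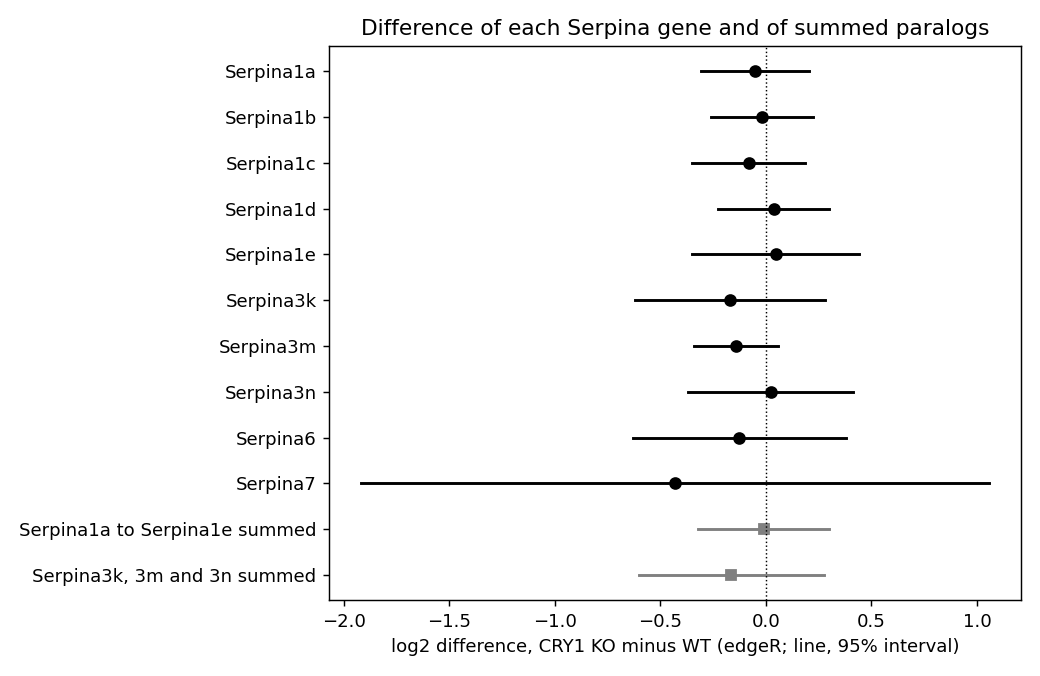
Log2 difference of CRY1 KO minus WT for each Serpina gene (black circles) and for the summed Serpina1 and Serpina3 copies (grey squares), with 95% intervals from the edgeR fit. Every interval includes 0, the narrowest being that of Serpina3m (-0.34 to 0.056) and the widest that of Serpina7 (-1.92 to 1.06).

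By edgeR's quasi-likelihood test with Benjamini-Hochberg adjustment over all tested genes, 0 of 10 members passed a threshold of 0.05, against 235 of 13816 tested genes (1.7%), of which 1.06% were higher and 0.644% lower in CRY1 KO. No member had an unadjusted p under 0.05, against 20.7% of tested genes. DESeq2 called 0 members, against 1284 of the 11936 genes to which it gave an adjusted p (10.8%), and limma called 0, against 221 of 13816 genes (1.6%). The smallest adjusted p was that of Serpina3m, 0.384. At each of these backgrounds a count of 0 in 10 does not set the members apart from other genes. The background count moved with the library left out, to 40, 20 and 30 genes without CRY1 KO 1, 2 and 3 and to 565, 17 and 844 without WT 1, 2 and 3, and the count of members stayed at 0 in each.

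The log2 differences of the members ran from -0.43 to 0.046 with a median of -0.067, where the median over all tested genes was -0.019. Of the 10, 7 were below 0 and 3, Serpina1d, Serpina1e and Serpina3n, above it. The 95% interval reached a median of 0.33 log2 units to each side in the members and 0.36 in all tested genes. Within groups the SD of log2 CPM was 0.067 in Serpina3m and 0.083 in Serpina1b, and 6.01% and 10.99% of tested genes had a lower one. It was between 0.11 and 0.12 in Serpina1a, Serpina1c and Serpina1d, between 0.26 and 0.33 in Serpina1e, Serpina3n, Serpina3k and Serpina6, and 0.80 in Serpina7, above that of 93.9% of tested genes.

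The division of each family among its copies needs no scaling between libraries, but depends on how shared reads were divided. Serpina1e made up 31.2% ± 2.81 of the summed Serpina1 counts in CRY1 KO and 30.1% ± 2.102 in WT (SD, n = 3 each). Serpina1c followed with 20.8% ± 0.919 in CRY1 KO and 21.8% ± 0.830 in WT, and Serpina1b with 18.4% ± 0.922 in CRY1 KO and 18.5% ± 1.002 in WT. Serpina1a took 16.5% ± 0.535 in CRY1 KO and 17.0% ± 0.472 in WT, and Serpina1d 13.1% ± 0.520 in CRY1 KO and 12.6% ± 0.342 in WT. The Serpina1e share was lowest in both libraries numbered 3, at 28.0% in CRY1 KO and 27.8% in WT, while the remaining 4 libraries had 30.7% to 33.4%.

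Serpina3k made up 94.3% ± 1.02 of the summed Serpina3 counts in CRY1 KO and 94.7% ± 0.592 in WT. Serpina3m made up 3.06% ± 0.518 in CRY1 KO and 3.003% ± 0.501 in WT, and Serpina3n 2.67% ± 0.522 in CRY1 KO and 2.28% ± 0.382 in WT. Across the 8 shares the groups overlapped, and exact two-sided permutation tests gave p between 0.2 and 0.9, and between 0.6 and 0.9 after Benjamini-Hochberg adjustment over the 8. With 3 libraries against 3 such a test cannot give less than 0.1, so none of these could have passed 0.05.

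**Figure D4:**
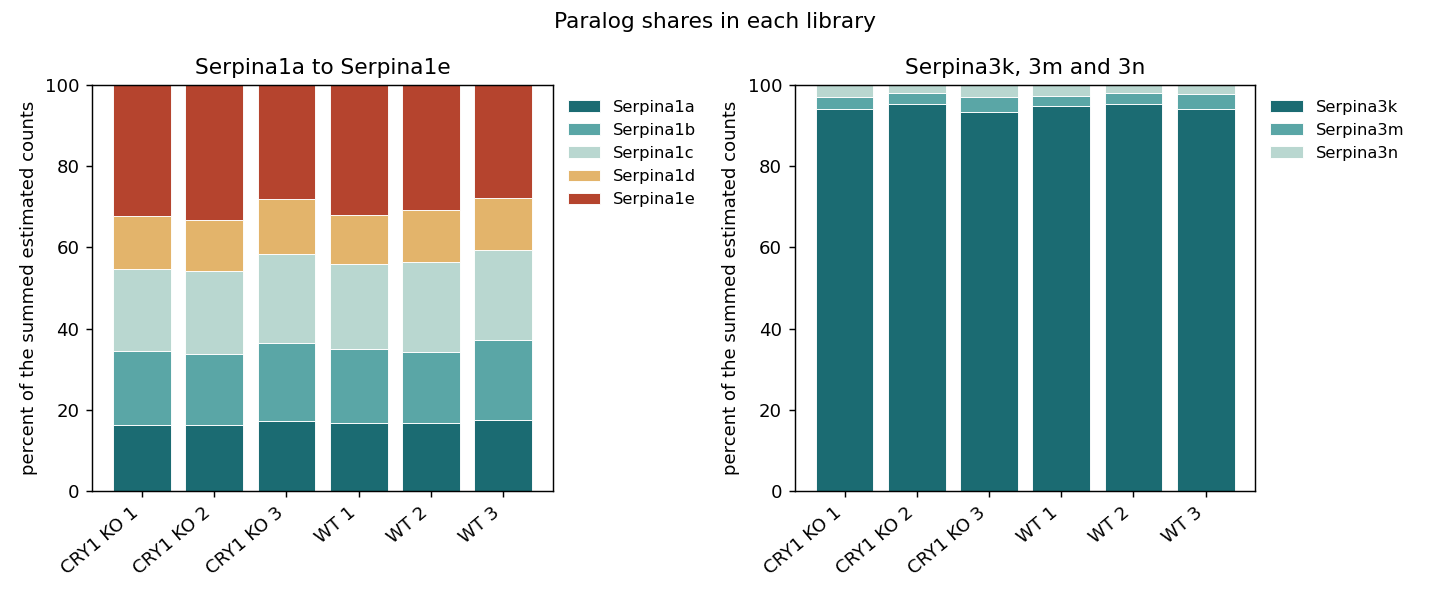
Percent of the summed estimated counts taken by each Serpina1 copy (left) and by Serpina3k, Serpina3m and Serpina3n (right) in each library, CRY1 KO left of WT. Serpina1e is the widest segment of each left-hand bar, and Serpina3k fills between 93.4% and 95.4% of each right-hand bar.

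Within groups the libraries differed, and the members did not all vary alike. CRY1 KO 3 lay below the gene mean in the 5 Serpina1 copies, Serpina3k, Serpina3m and Serpina3n, by between 0.021 log2 units in Serpina3n and 0.36 in Serpina3k, and above it in Serpina6 (0.36) and Serpina7 (0.63). CRY1 KO 2 showed the opposite signs, with 0.27 in Serpina1e and in Serpina3k and -0.32 in Serpina6 and -1.04 in Serpina7. WT 3 had -0.23 in Serpina1e, -0.24 in Serpina3k and 0.38 in Serpina6. The reason for these differences between libraries was not tested. The labels give no batch.

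**Figure D5:**
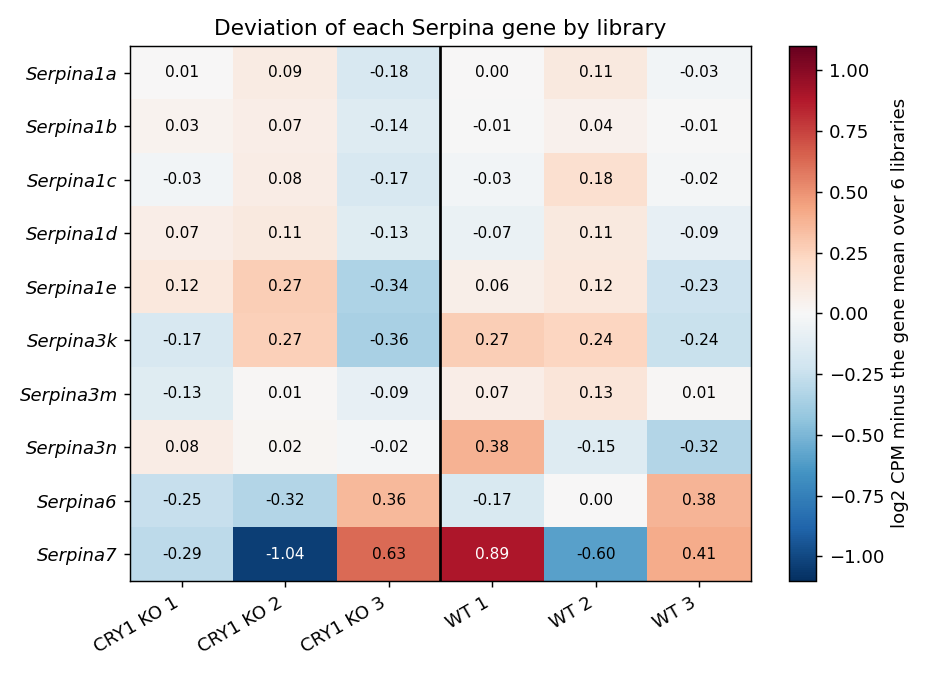
Log2 CPM of each Serpina gene minus its mean over 6 libraries, with CRY1 KO libraries left and WT libraries right of the black line. CRY1 KO 3 lies below 0 in the 8 inhibitor rows and above 0 in the Serpina6 and Serpina7 rows, and the strongest deviations are those of Serpina7 (-1.04 in CRY1 KO 2 and 0.89 in WT 1).

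Serpina7 was the member whose values spanned over 1 log2 unit, and the tested genes closest to its pattern were sought among 11427 other genes with a mean of at least 1 CPM. The nearest was Gbp7, a guanylate-binding protein gene induced by interferon, with a root mean square difference of 0.18 log2 units over the 6 libraries after centring, followed by Myof (0.31) and Spsb1 (0.33). Gbp7 stood at 3.43, 2.26 and 6.68 CPM in CRY1 KO and at 8.67, 3.24 and 4.40 CPM in WT. Likeness over 6 libraries is a description and carries no test.

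Other genes of serpin biology were counted in 10 lists, in which 3 of 146 tested genes passed by edgeR (2.05%, against 1.7% of all tested genes), 4 of 146 by limma (2.74%, against 1.6%) and 29 of 135 by DESeq2 (21.5%, against 10.8%). Their counts of unadjusted p under 0.05 stand against 20.7% of all tested genes. Of 15 tested serpins outside clade A, such as antithrombin and the C1 inhibitor, 0 passed the edgeR test, 2 had an unadjusted p under 0.05, and the median log2 difference was 0.047. The smallest p among them were those of Serpinb6b (1.103, SE 0.29, adjusted p = 0.0920) and of Serpinf1, which encodes pigment epithelium-derived factor (0.25, SE 0.087, adjusted p = 0.163). Of 14 transcription factors known to act on hepatocyte promoters 1 rose, Hnf4a, a nuclear receptor, with 613, 717 and 711 CPM in CRY1 KO and 479, 399.8 and 353 CPM in WT (log2 0.73, SE 0.13, edgeR adjusted p = 0.0389). In that list 5 of 14 genes had an unadjusted p under 0.05, and the median was 0.015. The 24 genes of folding, export and degradation of secreted glycoproteins, the route that α1-antitrypsin takes, held 0 called genes, 6 with an unadjusted p under 0.05, and had a median of 0.046, with Edem3, a mannosidase-like protein of degradation, at 0.45 (adjusted p = 0.0512) and Sec23a, a coat protein of export vesicles, at 0.34 (adjusted p = 0.0737).

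Of 19 other abundant plasma protein genes 0 passed and 0 had an unadjusted p under 0.05, with a median of -0.016, Vtn (vitronectin) at -0.24 and Ahsg (fetuin-A) at -0.25. Of the 30 acute phase genes 0 passed while 14 had an unadjusted p under 0.05, and the median was -0.53. Among them Itih3 had -0.57 (adjusted p = 0.0781) and Socs3, the feedback inhibitor of interleukin-6 signalling, -1.02 (adjusted p = 0.0795). Serpina3n, named above as an acute phase gene, stood at 0.022.

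Of 12 genes of thyroid hormone carriage and response 1 rose, Me1, the malic enzyme gene (0.67, SE 0.13, edgeR adjusted p = 0.0470), 2 had an unadjusted p under 0.05, and the median was 0.16. Of 12 glucocorticoid signalling genes 1 rose, Srd5a1, a steroid 5α-reductase gene (0.49, SE 0.092, edgeR adjusted p = 0.0410), 6 had an unadjusted p under 0.05, and the median was 0.61. Of 12 growth hormone signalling genes 0 passed and 5 had an unadjusted p under 0.05. In rat, a gene of the Spi2 serpins is a known growth hormone target. Among those 12 the STAT5 targets Socs2 and Cish had differences of -1.72 (SE 0.43, adjusted p = 0.110) and -2.76 (SE 0.80, adjusted p = 0.156), and the median was 0.034. DESeq2 called both (adjusted p = 6.23e-06 for Socs2 and 0.0109 for Cish), and in edgeR Socs2 passed without WT 1 (adjusted p = 0.00314). The calls of Hnf4a, Me1 and Srd5a1 were lost without CRY1 KO 1, CRY1 KO 2, CRY1 KO 3 or WT 2, with adjusted p between 0.0890 and 0.185. Without scaling the calls of Me1 (adjusted p = 0.0729) and Srd5a1 (0.0983) were lost, and by limma that of Me1 (0.0525).

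Of 7 listed genes of proteases known as targets of the inhibitors, 6 were in the table and 3 were tested. Of these 3, 0 were called and 1 had an unadjusted p under 0.05. The 2 with the smallest p, Prtn3 and Gzmb, had few counts, and those of the other tested gene are not given here. Prtn3, which encodes proteinase 3 of neutrophils, had 9, 0 and 0 estimated counts in CRY1 KO and 229, 31 and 24 in WT (edgeR adjusted p = 0.153). Gzmb, which encodes granzyme B, had 0, 12 and 29 in CRY1 KO and 14, 37 and 36 in WT (adjusted p = 0.606). Of 9 neutrophil markers 8 were in the table, with summed levels of 1.75 to 2.32 CPM in CRY1 KO and 3.08 to 8.13 CPM in WT.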

How the data were processed

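Polyadenylated RNA of mouse liver was sequenced from stranded Illumina libraries, per the labels' protocols. The authors worked with the aligner HISAT2 2.2.1, the trimmer Trim Galore 0.6.7, the R package limma 3.42.2 and the assembler StringTie 2.1.7, and with the build GRCm39 (mm39), per the submitters' processing notes. The sources used here do not give settings, annotation, strand use or read length. The authors deposited whole numbers per gene, taken here as estimated counts. More genes had the value 3 than 1, 2 or 4 in every library, so 1 unit was not read as 1 sequenced fragment. The smallest gene sum was 11. The 6 columns were matched to samples by title.

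Genes were filtered with filterByExpr (minimum count 10, minimum total 15), scaled by TMM and tested with edgeR 4.0.16 (R 4.3.3), quasi-likelihood with robust estimation and no block, and Benjamini-Hochberg adjustment over all 13816 genes. CPM are per TMM-scaled library size. The SE is the log2 difference over the square root of F, and 95% intervals use the t quantile of the same fit. Log2 CPM used a prior count of 2. Alternatives were other scalings, no filter, DESeq2 1.42.0, limma 3.58.1, a replicate block, summed paralogs and each library left out. The fits were tested on simulated data.

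Coding lengths, identities and windows came from complete coding transcripts of GENCODE M21 with the fewest coding exons, and promoters from RefSeq. The reference build (GRCm38) differs from the authors', so it gave sequence and gene order only. Of the 10 members 7 had a promoter entry; Serpina3k, Serpina3m and Serpina6 had none. The rule for naming genes took all members, the called genes of each related list or else the 2 with the smallest p, and the 3 genes nearest to any member spanning over 1 log2 unit. Members and lists were chosen with earlier results of these data known.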

Additional observations from a re-analysis of the deposited data

How the results depend on the processing

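Under the 12 alternatives tried for each gene (2 other scalings, no filter, DESeq2, limma, a replicate block and 6 fits with a library left out), 0 of 120 member results passed the threshold, and 110 kept their direction. The 10 that changed sign came from leaving out a library. Over the libraries left out, the log2 difference ran from -0.114 to 0.0256 for Serpina1a, from -0.0608 to 0.0493 for Serpina1b, from -0.0105 to 0.112 for Serpina1d, from -0.0846 to 0.209 for Serpina1e, from -0.114 to 0.257 for Serpina3n, from -0.369 to 0.0418 for Serpina6, from -0.0882 to 0.0904 for the summed Serpina1 copies and from -0.190 to 0.0879 for Cry1. The share difference ran from -0.557 to 0.471 percentage points for Serpina1b, from -0.118 to 2.63 for Serpina1e and from -0.197 to 0.344 for Serpina3m. Shares per coding length were no separate check. The coding length is 1239 bases in each Serpina1 copy and 1254 in Serpina3k, Serpina3m and Serpina3n, so these shares equal those of deposited values.

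The count of all called genes was 113 without scaling, 94 with the replicate block and 1284 by DESeq2, against 235, and ran from 17 to 844 over the libraries left out. Called genes of the related lists numbered 3, against 1 without scaling, 29 by DESeq2 and 0 to 19 over the libraries left out. The cause of these shifts was not tested. Correlations of within-group deviations of same-numbered libraries were -0.0658, -0.0143 and 0.0697, against -0.0917 to 0.0974 for other pairs. These values, from 3 libraries a group, cannot decide whether replicate numbers pair the libraries. With the replicate block 0 members were called, and Serpina3m had a log2 difference of -0.14 (edgeR adjusted p = 0.411) and Serpina7 of -0.47 (adjusted p = 0.446). The block ended the calls of Hnf4a (adjusted p = 0.0843) and Srd5a1 (adjusted p = 0.0823) and added that of Cish (log2 difference -2.87, adjusted p = 0.0115). The number of libraries, 3 a group, limits the differences that could be detected.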

Other observations

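Of 16 other clade A serpins listed, 11 were in the table and 8 were tested, with 0 called, 1 with an unadjusted p under 0.05 and a median log2 difference of -0.13. The remaining 5, Serpina1f, Serpina3a, Serpina3h, Serpina4-ps1 and Serpina16, were not analysed here. Serpina10, which encodes the protein Z-dependent protease inhibitor of coagulation, stood at 112 to 141 CPM in CRY1 KO and 109 to 200.4 CPM in WT (log2 -0.38, SE 0.22, edgeR adjusted p = 0.366). Serpina11 stood at 60.7 to 63.5 CPM in CRY1 KO and 60.3 to 80.2 CPM in WT (-0.18, SE 0.11, edgeR adjusted p = 0.390). Serpina12, which encodes the adipokine vaspin, stood at 50.2 to 106 CPM in CRY1 KO and 35.9 to 62.5 CPM in WT (0.82, SE 0.35, edgeR adjusted p = 0.260). In these 3 genes the groups overlapped.

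Serpina9, a serpin known from germinal centre B cells, had the smallest p of the clade. It stood at 0.768, 1.18 and 0.481 CPM in CRY1 KO and at 1.66, 4.75 and 2.86 CPM in WT, without overlap (log2 -1.93, SE 0.46, edgeR adjusted p = 0.0736). It passed by DESeq2 (adjusted p = 0.000563) and in edgeR without WT 1 (adjusted p = 0.0207), and over all alternatives the adjusted p reached 0.227. The 12 lymphocyte markers, 11 of them in the table, summed to 4.28 to 5.39 CPM in CRY1 KO and 9.59 to 15.2 CPM in WT. The median marker overlapped, at 0.317 to 0.384 CPM in CRY1 KO and 0.326 to 0.523 CPM in WT. The median of the markers' log2 differences was -1.02, where that of all tested genes was -0.019. Of the 11 tested by edgeR, 1 was called, Jchain, lower in CRY1 KO (1.7% of all tested genes were called). An unadjusted p under 0.05 was found for 2 of them, against 20.7% of all tested genes. The part of these markers in the Serpina9 difference was not tested. Serpina3f lay at 1.94 to 3.16 CPM in CRY1 KO and 1.28 to 1.73 CPM in WT (0.60, SE 0.27, edgeR adjusted p = 0.244), also without overlap. Serpina3c, Serpina3g and Serpina3i stayed below 1 CPM in every library, and Serpina3b, Serpina3j and Serpina5 did not pass the filter.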
